A study of Rattus norvegicus with 2 samples.

Results

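Gene expression in the left ventricle (LV) was compared between high-salt rats treated with chaetocin and rats on a normal-salt diet, and the genes that stayed away from the normal-salt level under treatment were described. All animals were male Dahl salt-sensitive (DS) rats, a strain that becomes hypertensive on a high-salt diet and goes on to LV hypertrophy and heart failure, and tissue was taken at the stage of heart failure, up to 13 weeks of age. The control group [NS (-)] ate 0.3% NaCl and received no chaetocin. The treatment group [HS (ch+)] ate 8% NaCl and was given 0.25 mg/kg of chaetocin by intraperitoneal injection, dissolved in dimethyl sulfoxide, with 2 doses per week between 6 and 13 weeks of age. An untreated high-salt group [HS (-)] on 8% NaCl served as the link between them. Whether the groups without chaetocin were injected with the solvent is not given in the sources used here. RNA of 3 rats was pooled for each group, so each group was 1 sample. With 1 pool per group there was no replicate, no difference between rats could be measured, and no p-value was calculated.

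The pools were hybridized to 2 dual-color oligonucleotide arrays that carry probes for 20174 rat genes. On array 1, NS (-) was read in the green dye Cy3 and HS (-) in the red dye Cy5, and on array 2, HS (ch+) was read in Cy3 and HS (-) in Cy5. Both pools of interest were therefore read in Cy3 on different arrays. Their ratio, HS (ch+)/NS (-), was obtained through the HS (-) pool: the centered log2 Cy3/Cy5 ratio of array 1 was subtracted from that of array 2 at each spot, so that a dye effect common to both arrays cancelled. A gene was counted as measured when its signal in all 4 channels exceeded the mean of the blank spots by more than 2 SD of those spots. This held for 12290 of 20174 genes, and 7884 genes were not measured, of which 2870 were above this limit in none of the 4 channels. A signal is the intensity of a spot after subtraction of the blank mean and before centering. Signals of different arrays are given to show brightness, and the ratios are the centered ones.

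Chaetocin inhibits SU(VAR)3-9, an enzyme that trimethylates lysine 9 of histone H3, a mark of silent chromatin. The adult rat ventricle contracts with alpha-myosin and draws most of its energy from fat oxidation in mitochondria. In pressure overload and failure the heart is known to shift toward fetal and stress genes, with lower levels of alpha-myosin, ion transport and fat oxidation genes. Whether a treated heart returns to the control program is the question that the comparison with NS (-) addresses.

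The arrays list genes by Ensembl ID, and 50 of these IDs could be named, through the gene table of the study. These 50 genes were selected by the study on the same 2 arrays, as genes lowered in HS (-), higher again in HS (ch+) and with a signal of at least 100 in HS (-), so their signal and their position below NS (-) are favored by the selection and are not independent evidence. The remaining 20124 genes have no name here, and they are described by counts and, for a few, by ID. For the same reason gene lists could not be used: of 613 gene symbols on 32 lists for cardiac stress, metabolism, matrix and cell types, 14 had an ID. Of the cardiomyocyte markers on these lists, Myh6 had an ID and was among the brightest spots in all 4 channels. Defining markers of other cell types could not be looked up, with the exception of single genes such as Cd74.

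Most of the measured genes lay near the NS (-) level in the treated pool. Of 12290 genes, 7112 (57.9%) were within 1.2-fold of NS (-) in HS (ch+), and of the 4512 genes with a signal of at least 100, taken as the geometric mean of the 4 channels, 3142 (69.6%) were. The HS (-)/NS (-) ratio of the same genes was within this range for 45.8% and 49.9%, respectively, and the HS (ch+)/HS (-) ratio for 58.1% and 65.6%. The middle 50% of genes with a signal of at least 100 spanned 0.32 on the log2 scale for HS (ch+)/NS (-), 0.53 for HS (-)/NS (-) and 0.36 for HS (ch+)/HS (-). These 3 ratios share pools and are placed side by side without a test. HS (-)/NS (-) and HS (ch+)/HS (-) each compare Cy5 with Cy3 on 1 array. A dye effect on a gene thus remains in them, while it cancels in HS (ch+)/NS (-). How much it widens their spread was not tested.

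Away from the control level, 371 genes were at least 2-fold higher in HS (ch+) than in NS (-), which was 3.02% of the measured genes, and 176 were at least 2-fold lower, which was 1.43%. Genes with a strong signal were displaced mostly upward: of those with a signal of at least 100, 94 (2.08%) were at least 2-fold higher and 11 (0.244%) at least 2-fold lower. Higher genes thus made up 67.8% of the displaced genes overall and 89.5% of those with a signal of at least 100. The first share depended on weak spots. It was 50.6% with the background of each spot subtracted (577 higher, 564 lower), 92.0% without background subtraction (80 and 7), 84.6% with normexp correction and loess (88 and 16), 94.1% with 50 added to each signal (80 and 5) and 52.9% without a detection limit (1827 and 1625). At a limit of 3-fold in place of 2-fold it was 85.1% (97 and 17). Among genes with a signal of at least 100 the counts rose to 235 higher and 38 lower with the background of each spot subtracted, and the share was between 83.8% and 94.9% under all settings with the 2-fold limit, and it was 75.8% at a limit of 1.5-fold (238 and 76). The geometric mean includes the high-salt channels and so favors genes raised in them. With a signal of at least 100 in all 4 channels the share was 89.8% (53 and 6).

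**Figure D1:**
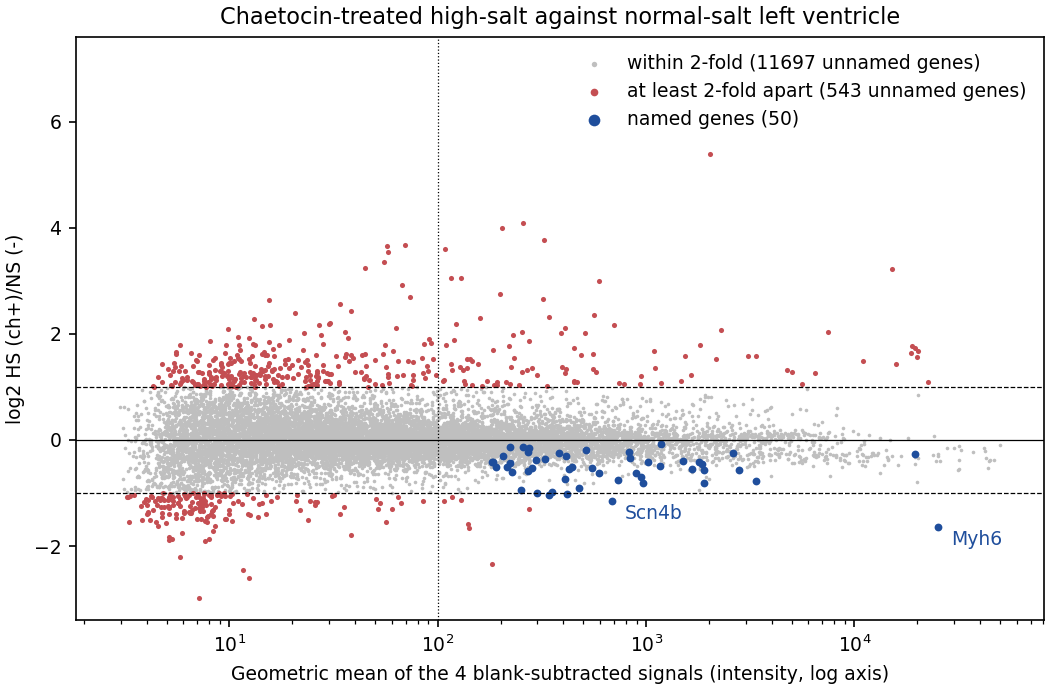
Each point is 1 of 12290 measured genes, with the geometric mean of its 4 blank-subtracted signals on the x axis (intensity, log scale) and log2 HS (ch+)/NS (-) on the y axis; dashed lines mark 2-fold and the dotted line a signal of 100. Red points are unnamed genes at least 2-fold from NS (-), blue points the 50 named genes, all of which lie below 0, with Myh6 and Scn4b lowest.

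Divided by signal, the excess of higher genes held in every class except the weakest. The classes rest on the geometric mean, which includes the high-salt channels. A gene raised in high salt is thus moved to a brighter class and a lowered gene to a weaker one. How much of the pattern comes from this was not tested. Below a signal of 10, 82 genes were at least 2-fold higher and 125 lower, of 1860. Between 10 and 30, 130 were higher and 27 lower, of 2884, and between 30 and 100, 65 and 13 of 3034. Above 100 the classes showed 43 higher and 7 lower (100 to 300), 25 and 3 (300 to 1000), and 26 and 1 (1000 or more). The precision of the arrays changed over the same range. The SD of log2 between the paired readings of the HS (-) pool was 0.40 in the weakest class and 0.15 in the brightest, so weak spots were read less precisely. This is the spread of 1 channel across the arrays and not the error of HS (ch+)/NS (-). In that ratio, spread between spots partly cancelled for the bright, repeatedly spotted genes described below. Weak spots were not tested for this.

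**Figure D2:**
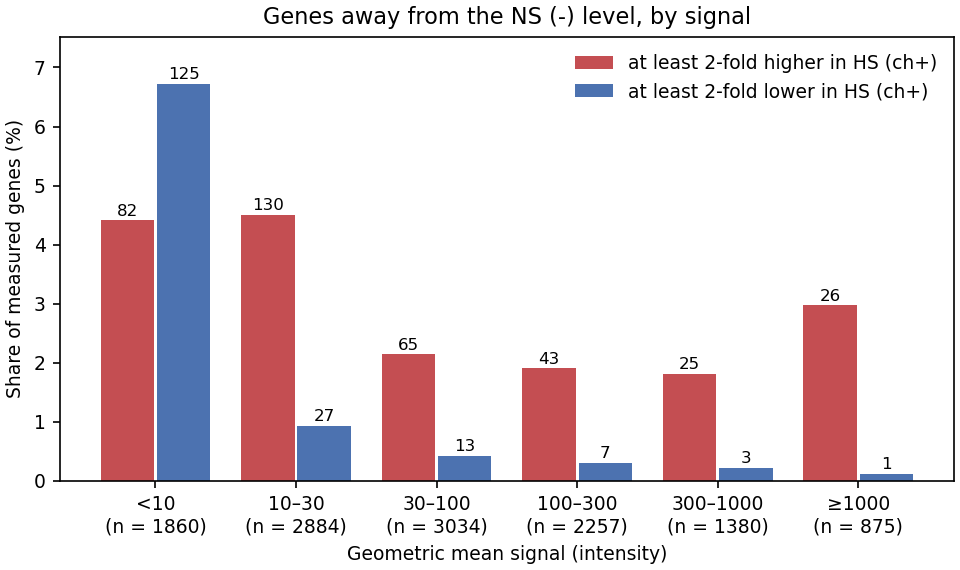
Bars show the share of measured genes (%) that were at least 2-fold higher (red) or lower (blue) in HS (ch+) than in NS (-), by class of geometric mean signal, with the number of genes above each bar. Lower genes outnumber higher genes in the class below 10 and make up 1 gene of 875 in the class of 1000 or more.

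The error of the method could be judged from repeated readings. The labels describe the Cy5 sample of both arrays in the same words, and it was taken to be the same HS (-) pool, on which the ratio through HS (-) also rests. On that basis the paired readings hold labelling and array error and no difference between rats. Over the 4512 genes with a signal of at least 100, the paired readings of HS (-) differed with an SD of 0.16 on the log2 scale, or 1.12-fold. A pair of genes was spotted 25 times each, in different blocks of the array. Their HS (ch+)/NS (-) ratio was 1.05, with a range of 1.004 to 1.098 over the 25 spots, and 1.24, with a range of 1.19 to 1.32. The SD between spots was 0.03 on the log2 scale for both genes. When the Cy3 signals were divided directly, without the HS (-) channel, the SD between the same spots was 0.14 and 0.11. Both genes were bright, with mean signals in NS (-) of 3919 and 2411, respectively. For them, the link through HS (-) thus removed most of the spread between spots. Whether it does so for weak spots or for other genes was not tested. The repeated spots lie on the same arrays, so an error common to all spots of an array is not in their SD. The precision of all ratios is limited by the number of arrays, 2.

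The 94 genes at least 2-fold higher at a signal of at least 100 had a median signal of 125 in NS (-) and 455 in HS (ch+). Their median ratio was 2.76 for HS (ch+)/NS (-), 4.12 for HS (-)/NS (-) and 0.729 for HS (ch+)/HS (-). The middle 50% of the 94 genes had HS (ch+)/HS (-) ratios of 0.466 to 0.953, so that most of them were lower in the treated than in the untreated high-salt pool and still above NS (-). Their HS (-)/NS (-) ratios went down to 1.19, so not all of them were displaced in the untreated pool. The 11 genes at least 2-fold lower had median ratios of 0.451, 0.296 and 1.51, respectively. At this signal the treated pool lay, by the medians, between the normal-salt and the untreated high-salt pools in both sets. The geometric mean includes HS (-) from both arrays, so the filter favors higher genes with a strong HS (-) signal. Of the 94 and 11 genes, 53 and 6 had a signal of at least 100 in all 4 channels. Over all measured genes the treated pool lay between the others only in the higher set, and there close to HS (-). The 371 higher genes had medians of 2.47 for HS (ch+)/NS (-), 2.67 for HS (-)/NS (-) and 0.984 for HS (ch+)/HS (-). The 176 lower genes had medians of 0.431, 0.507 and 0.866, respectively, so that the treated pool was the lowest. The ratios share pools, those to HS (-) hold any dye effect on a gene, and these orders are a description.

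**Figure D3:**
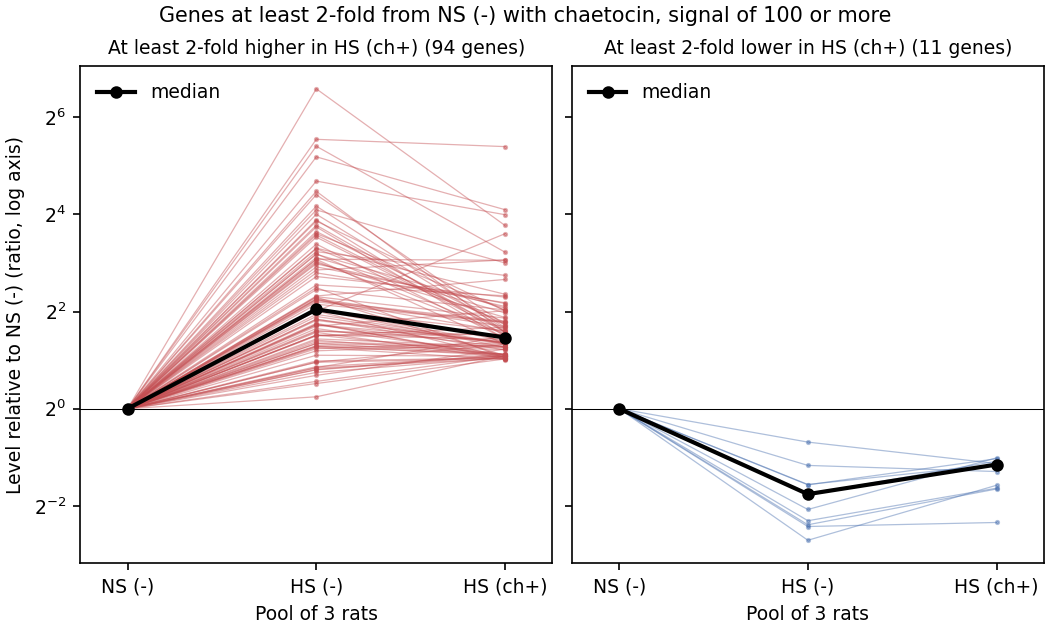
Lines join the level of each gene relative to NS (-) (ratio, log axis) in the 3 pools for the 94 genes at least 2-fold higher (left) and the 11 at least 2-fold lower (right) in HS (ch+), at a signal of at least 100; black lines are medians. The medians run from 1 through 4.12 to 2.76 on the left and from 1 through 0.296 to 0.451 on the right.

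Individual genes departed from this order. The gene with the highest ratio at this signal, ENSRNOG00000006151, had signals of 116 in NS (-), 4818 and 5060 in HS (-) on arrays 1 and 2, and 5917 in HS (ch+). Both high-salt pools were far above NS (-), and the treated pool was close to the untreated one. Its HS (ch+)/NS (-) ratio was 42.0, against 46.6 for HS (-)/NS (-), and it ranged from 27.4 to 44.0 over the ways of processing. ENSRNOG00000006579, chosen after its values were seen, had signals of 29.8 in NS (-), 107 and 105 in HS (-), and 410 in HS (ch+). It was 3.02-fold higher in the treated than in the untreated high-salt pool and 12.1-fold higher than in NS (-), so the treated pool was the highest of the 3. Its ratio to NS (-) fell to 2.08 under the setting that lowered it most.

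The gene with the lowest ratio at a signal of at least 100, ENSRNOG00000020251, had signals of 644 in NS (-), 107 on both arrays in HS (-), and 147 in HS (ch+). Its level was low in both high-salt pools. The HS (ch+)/NS (-) ratio was 0.197, or 5.07-fold lower, the HS (ch+)/HS (-) ratio was 1.06, and the first ranged from 0.175 to 0.317 over the ways of processing. ENSRNOG00000010047 followed with 447 in NS (-), 75.9 and 73.1 in HS (-), and 158 in HS (ch+). Here the treated pool lay between the other pools, at a ratio of 0.318 to NS (-) and 1.67 to HS (-).

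Further genes were detected in only 1 of the Cy3 pools, and most of them have a bound in place of a ratio. There were 1518 genes above the blank limit in HS (ch+) and not in NS (-), and 471 in NS (-) and not in HS (ch+). Of the 20174 genes on the array, 13874 were above the limit in HS (ch+) and 12827 in NS (-). Array 2 was the brighter one, as its HS (-) readings were 1.11-fold those of array 1, by the median at a signal of at least 100. That value is for Cy5, while the counts are of Cy3. The median log2 Cy3/Cy5 was 0.17 on array 1 and 0.38 on array 2, so the gap in Cy3 was likely larger. Whether this brightness adds to the difference in counts was not tested. Most of the 1518 and 471 genes were weak, with median signals of 5.94 and 4.94. For 210 of the 1518 the bound was at least 2-fold, and for 21 at least 4-fold, the largest being at least 9.51-fold higher in HS (ch+). For 78 of the 471 the bound was at least 2-fold, and for 9 at least 4-fold, the largest being at least 16.5-fold lower in HS (ch+). These bounds were calculated from single-channel values (loess within and Aquantile between arrays), as the brighter value over the higher of the dim spot's own value and the lowest detected signal of that channel. For 165 of the 1518 and 3 of the 471 no bound was left, as the value of the detected pool was not above the one it was divided by.

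All 50 named genes were measured with a signal of at least 100, as the selection required of HS (-), and all lay below NS (-) in HS (ch+), as did 53.8% of all genes with such a signal. Their median HS (ch+)/NS (-) ratio was 0.705, against 0.983 over all genes with a signal of at least 100, and the range was 0.322, an upper limit for Myh6, to 0.944. Of the 50, 4 were at least 2-fold lower, against 0.244% of genes with a signal of at least 100, and 0 were higher. The study's criteria, a low HS (-)/NS (-) ratio and a raised HS (ch+)/HS (-) ratio, enter this product, so the count is given as a description. A ratio below 0.6 was found for 13 genes, below 0.7 for 24, below 0.8 for 38 and below 0.9 for 47, while 0.842%, 2.31%, 10.8% and 29.9% of all genes with a signal of at least 100 lay below these levels. As RNA was taken from whole tissue, fewer cells of a type and less RNA per cell cannot be told apart.

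**Figure D4:**
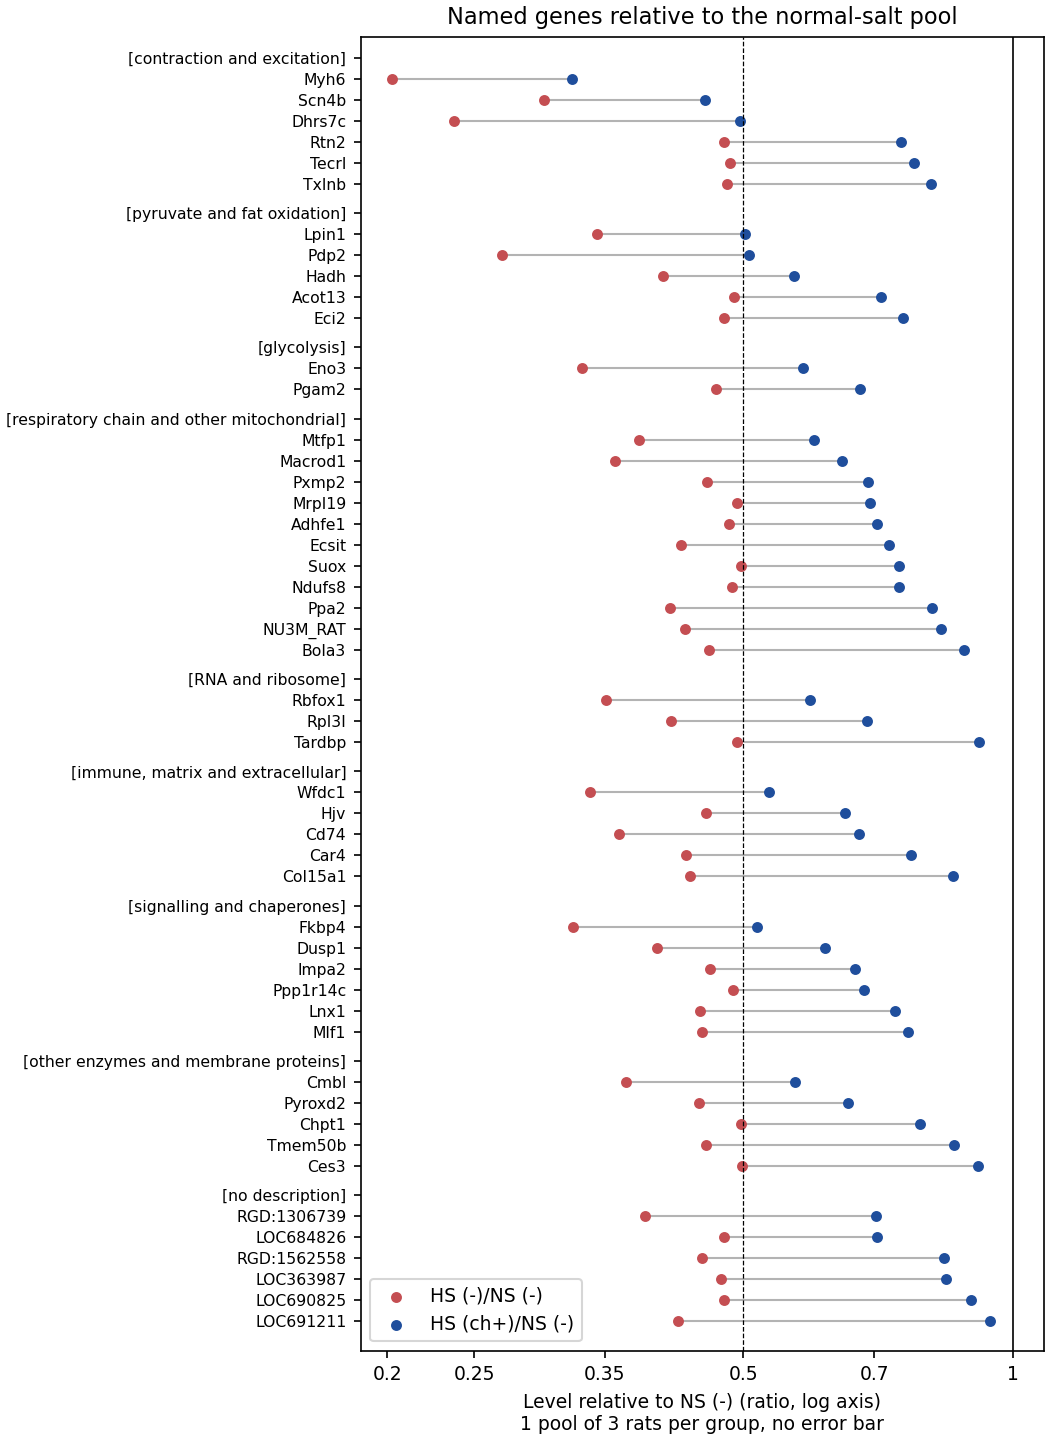
For 49 of the 50 named genes, grouped by function, the red point is HS (-)/NS (-) and the blue point HS (ch+)/NS (-), on a log ratio axis with lines at 1, the NS (-) level, and 0.5. Every blue point lies to the right of its red point and to the left of 1, as the selection of these genes favored, and the blue points left of 0.5 are Myh6 (a saturated NS (-) spot, so an upper limit), Scn4b and Dhrs7c.

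Among the groups of named genes, contraction and excitation stayed furthest from the control level in the main values, with a median ratio of 0.496 over 7 genes. The size of this lead depended on the processing. With the background of each spot subtracted, the group's middle value was 0.621, against 0.623 for pyruvate and fat oxidation. With normexp and loess it was 0.627, against 0.632. In the main values the contraction and excitation group held all 4 named genes that were at least 2-fold lower. Pdp2, Rbfox1 and Fkbp4 of other groups were below 0.5 in some ways of processing. The group was also lower in HS (-), with a median of 0.338 of NS (-) against 0.4465 over all 50. Its median HS (ch+)/HS (-) ratio was 1.59, against 1.60 over all 50. Myh6, the alpha-myosin heavy chain that is the main motor protein of the adult rat ventricle, had signals of 65490 in NS (-), 11790 and 15970 in HS (-), and 32990 in HS (ch+). The treated pool lay between the other pools. As the NS (-) spot was saturated, only a bound can be given, and the level in HS (ch+) was at least 2.47-fold lower than in NS (-), by the same calculation from single-channel values. The centered ratio of 0.322 is likewise an upper limit within the main processing. It was the lowest value over the ways of processing, and the highest was 0.406 with Aquantile. The HS (-) readings of Myh6 differed 1.36-fold between the arrays, against a median of 1.11-fold over genes with a signal of at least 100.

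Scn4b, a beta subunit of the voltage-gated sodium channel, had signals of 1711 in NS (-), 456 and 381 in HS (-), and 747 in HS (ch+). Its ratio was 0.453, or 2.21-fold lower than in NS (-), and HS (-) was lower still, at 0.299. The HS (-) reading on array 2 was 0.835 times that on array 1, the lowest among the named genes, and without the HS (-) channel the ratio was 0.336. Dhrs7c, a short-chain dehydrogenase of the sarcoplasmic reticulum, had signals of 989 in NS (-), 209 and 233 in HS (-), and 632 in HS (ch+). It rested just inside the 2-fold limit at 0.496, although its HS (ch+)/HS (-) ratio of 2.09 was the second highest among the named genes. Over the ways of processing Dhrs7c was below 0.5 in 5 of 10, Scn4b in 9 of 10 and Myh6 in 9 of 9. Myh6 has no value when saturated spots are left out. The 10 ways are not independent. The deposited table repeats the main values, and so does the removal of saturated spots for genes without one. The 0.496 of Dhrs7c is thus counted more than once.

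A further 3 genes of this group were nearer to NS (-). Tecrl, an endoplasmic reticulum protein linked to inherited arrhythmia, was at 0.775, and Txlnb, a muscle-specific taxilin, at 0.809. Rtn2, a reticulon, was at 0.751, but this value depended on the background, as it was 1.28 when the background of each spot was subtracted.

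The 5 genes of pyruvate and fat oxidation had a median ratio of 0.570. Lpin1, a phosphatidate phosphatase and coactivator of fat oxidation genes, lay just outside the 2-fold limit, with signals of 581 in NS (-), 177 and 202 in HS (-), 384 in HS (ch+) and a ratio of 0.502. Pdp2, the phosphatase that switches on pyruvate dehydrogenase in mitochondria, had signals of 787, 188 and 208, and 510 in the same order. Pdp2 was among the lowest named genes in HS (-), at 0.268 of NS (-), and was at 0.508 in HS (ch+). Hadh, a dehydrogenase of mitochondrial beta-oxidation, was brighter, with signals of 3325, 1204 and 1338, and 2432, and had a ratio of 0.570. Acot13, an acyl-CoA thioesterase, was at 0.712, and Eci2, an enoyl-CoA isomerase, at 0.753. All 5 were below NS (-) in all 10 ways of processing, including those that repeat the main values, with ratios up to 0.9045.

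Muscle isoforms of glycolysis also remained low. Eno3, the muscle enolase, had signals of 5987 in NS (-), 1760 and 2303 in HS (-), and 5278 in HS (ch+). Its ratio was 0.583 and ranged from 0.583 to 0.726 over the ways of processing. Pgam2, the muscle phosphoglycerate mutase, had signals of 3146, 1303 and 1281, and 2414, with a ratio of 0.676. The treated pool was above HS (-) and below NS (-) for both genes.

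Of 30 named genes with a promoter in the RefSeq table of rat (build GRCr8), the 250 bases before the start site were searched on both strands for 4 motifs known from muscle and cardiac promoters. The M-CAT element, CATTCC, occurred in 4 of the 30 (13.3%), against 12.1% of 33469 promoters of the same length. Its carriers were Myh6, Eno3, Pgam2 and Hjv, the first 3 being shown here because they code for muscle isoforms that remained below NS (-). TATAAA was present in 2 (6.67%, against 12.9% of all) and the motif of cardiac zinc finger factors, AGATAA, in 2 (6.67%, against 10.3%). The CArG box, the binding motif of serum response factor, was found in 0 of the 30, against 1.5% of all. These shares are a description and do not mark binding sites. The windows are chr15:32411698-32411947 on the minus strand for Myh6, chr10:55868936-55869185 on the plus strand for Eno3 and chr14:84897875-84898124 on the minus strand for Pgam2, each printed 5′ to 3′ with matches in capitals. In Myh6 the match begins 23 bases before the start site, in Eno3 82 bases before it and in Pgam2 94 bases before it, the latter 2 on the opposite strand, where the element reads GGAATG. The further capitals are AGATAA in Eno3 and TATAAA in Pgam2.
Myh6: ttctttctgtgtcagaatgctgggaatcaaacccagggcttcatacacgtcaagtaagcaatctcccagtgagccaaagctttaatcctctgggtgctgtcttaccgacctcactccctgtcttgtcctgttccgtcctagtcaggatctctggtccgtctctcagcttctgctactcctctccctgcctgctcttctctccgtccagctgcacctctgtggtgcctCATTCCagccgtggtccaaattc
Eno3: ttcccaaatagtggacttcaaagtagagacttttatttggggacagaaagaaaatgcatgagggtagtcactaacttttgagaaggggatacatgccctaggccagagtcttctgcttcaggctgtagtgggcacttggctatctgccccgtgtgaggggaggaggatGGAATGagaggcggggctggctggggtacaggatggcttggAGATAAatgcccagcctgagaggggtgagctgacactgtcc
Pgam2: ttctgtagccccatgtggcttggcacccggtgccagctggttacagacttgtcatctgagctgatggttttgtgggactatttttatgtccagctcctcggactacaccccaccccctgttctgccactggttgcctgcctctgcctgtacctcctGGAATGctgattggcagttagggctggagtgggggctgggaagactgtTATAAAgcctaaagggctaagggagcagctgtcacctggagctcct

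Genes for the respiratory chain and other mitochondrial proteins lay closer to NS (-), with a median ratio of 0.727 over 11 genes. Of these, 0 were at least 2-fold lower, against 0.244% of all genes with a signal of at least 100, so this count does not set them apart. Mtfp1, which acts in mitochondrial fission, was the lowest, with signals of 762 in NS (-), 259 and 263 in HS (-), 536 in HS (ch+) and a ratio of 0.5997. Macrod1, a mitochondrial macrodomain protein, was at 0.645, Mrpl19, a protein of the mitochondrial ribosome, at 0.692, and Ecsit, a complex I assembly factor, at 0.727. Adhfe1, an alcohol dehydrogenase, was at 0.7055. The group also holds Pxmp2, at 0.689, a peroxisomal membrane protein that the study's table marks as mitochondrial. Ndufs8, an iron-sulfur subunit of complex I, was at 0.747, and Suox, sulfite oxidase, at 0.746. NU3M_RAT, the mitochondrially encoded ND3 subunit of complex I, was among the brightest spots, with signals of 28350, 10860 and 13610, and 34110, and was at 0.831. Bola3, required for iron-sulfur cluster assembly, was at 0.881. The 13 genes that the study's table marks as mitochondrial had a median ratio of 0.705, and the 37 not so marked had 0.704. These marks do not separate mitochondrial from other genes cleanly, as NU3M_RAT and Bola3 are not marked and Pxmp2 is.

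Ppa2, the mitochondrial pyrophosphatase, could not be placed on one side of NS (-). Its signals were 525 in NS (-), 193 and 335 in HS (-), and 854 in HS (ch+), and the HS (-) readings differed 1.73-fold, the most among the named genes. The ratio was 0.813 through the HS (-) channel and 1.251 without it.

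Tardbp, which encodes the RNA-binding protein TDP-43, was nearest to NS (-) among the described genes, at 0.917, and behaved in the same way. Its signals were 265 in NS (-), 116 and 179 in HS (-), and 434 in HS (ch+), the HS (-) readings differed 1.55-fold, and the ratio was 1.26 without the HS (-) channel. The other 2 genes of RNA processing and translation stayed lower in every way of processing. Rbfox1, a splicing regulator of heart and muscle, had signals of 1391 in NS (-), 435 and 471 in HS (-), 1033 in HS (ch+) and a ratio of 0.593. Rpl3l, a ribosomal protein found in heart and skeletal muscle, was at 0.688.

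Extracellular, immune and matrix genes had a median ratio of 0.673 over 5 genes. Wfdc1, a secreted protein with a whey acidic protein domain, had signals of 868 in NS (-), 260 and 335 in HS (-), and 691 in HS (ch+), with a ratio of 0.535. Cd74, the invariant chain of class II antigen presentation and a product of immune cells, had signals of 4345, 1404 and 2044, and 4916, with a ratio of 0.673. The HS (-) readings of Cd74 differed 1.46-fold, and its ratio ranged from 0.673 to 0.881. Hjv, hemojuvelin, was at 0.649, Car4, a membrane-bound carbonic anhydrase, at 0.769, and Col15a1, a basement membrane collagen, at 0.857.

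Signalling and chaperone genes had a median of 0.674 over 6 genes. Fkbp4, a co-chaperone of steroid receptors, had signals of 495 in NS (-), 142 and 163 in HS (-), and 340 in HS (ch+), and a ratio of 0.518. Dusp1, a phosphatase that inactivates MAP kinases, had signals of 1586, 565 and 672, and 1343, and was at 0.617. Impa2, an inositol monophosphatase, was at 0.666, Ppp1r14c, an inhibitor of protein phosphatase 1, at 0.682, Lnx1, a ubiquitin ligase of Numb, at 0.738, and Mlf1, myeloid leukemia factor 1, at 0.763.

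Other enzymes and membrane proteins had a median of 0.787 over 5 genes. Cmbl, a hydrolase, was the lowest, with signals of 1753 in NS (-), 577 and 659 in HS (-), 1322 in HS (ch+) and a ratio of 0.571. Chpt1, a cholinephosphotransferase of phosphatidylcholine synthesis, was at 0.787, Tmem50b at 0.859 and Ces3, a carboxylesterase, at 0.915. The 6 genes without a description had a median of 0.840, and LOC691211 was the nearest of all 50 to NS (-), at 0.944. Its signals were 1555 in NS (-), 584 and 848 in HS (-), and 2462 in HS (ch+), and its ratio was 1.22 without the HS (-) channel. In all, 8 of the 50 genes were above NS (-) in at least 1 way of processing, namely Ppa2, Tardbp, Rtn2, Bola3, Ces3, NU3M_RAT, LOC690825 and LOC691211. Another 8 were below 0.65 in every one, among them Myh6, Scn4b, Dhrs7c, Lpin1, Pdp2, Fkbp4 and Wfdc1.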

How the data were processed

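Expression was measured on 2 dual-color arrays with 3 pools of LV RNA, and each pool was assigned to its group from the labels of its channel. The authors deposited the median intensity of each spot in Cy5 and Cy3 without normalization, and a table of normalized log2 values. Tested against the intensities, that table holds log2 Cy3/Cy5 ratios after blank subtraction and median centering, and it differed from the values recalculated here by at most 2.7e-05. Centering subtracted 0.17 (array 1) and 0.38 (array 2). Scanner settings beyond the file headers and the genome build behind the IDs are not given in the sources used here.

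Here, each channel was reduced by the trimmed mean of its blanks (5% removed at each end), genes within 2 SD of it in any channel were left out, and log2 Cy3/Cy5 was centered on its median. HS (ch+)/NS (-) was array 2 minus array 1. One spot failed a scanner flag and was left out. Saturated spots, at 65535, were kept, and 2 measured genes had one. The limits were 2-fold and a geometric mean signal of 100. No test was made, because each group was 1 pool. Alternatives were other background corrections, loess, normexp with an offset of 50, Aquantile, omission of the HS (-) channel, the deposited table, 50 added to each signal, other filters and fold limits, and removal of saturated spots. The steps were run on simulated arrays with changes planted only in genes with a signal of at least 100. No dye effect on single genes was simulated. These runs thus cover neither changes in weak spots nor such dye effects. The members, lists and groups were chosen with earlier results of these data known. Genes to be named were the 10 with the highest and the 10 with the lowest ratio among those with a symbol and a signal of at least 100, members of gene lists, and single cardiac genes, of which only Myh6 had an ID; other genes in the text were added after their values were seen. Of 50 names in the study's table, 35 were updated through RefSeq (GRCr8) accessions and 15 were kept. The values of 1 of the 50 genes are not reported here, although it is included in the counts and medians. Python 3.11.15, numpy 2.4.6, pandas 2.3.3, matplotlib 3.10.9, R 4.3.3 and limma 3.58.1 were used.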

Additional observations from a re-analysis of the deposited data

How the results depend on the processing

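The number of genes at least 2-fold higher in HS (ch+) was 371 and of those at least 2-fold lower 176. It was 380 and 180 with loess, 349 and 193 with Aquantile, 393 and 151 without the HS (-) channel, 370 and 175 without saturated spots, and the same as in the main values with the deposited table. Counts moved by more than 1.5 times with the background of each spot subtracted (577 and 564), no background subtraction (80 and 7), normexp and loess (88 and 16), 50 added to each signal (80 and 5), a geometric mean signal of at least 100 (94 and 11), a signal of at least 100 in all 4 channels (53 and 6), no detection limit (1827 and 1625), and limits of 1.5-fold (1087 and 724) and 3-fold (97 and 17). The filters and limits change the counts by construction, and for the others the cause was not tested. Of the 371 and 176 genes, 353 and 154 were also called with loess, 261 and 95 with Aquantile, 278 and 89 without the HS (-) channel, 167 and 69 with the background of each spot subtracted, 79 and 7 when no background was subtracted, and 49 and 6 after normexp with loess. The median ratio of the 50 named genes was between 0.673, without a detection limit, and 0.784, with 50 added to each signal. All 50 were below NS (-) with loess and with the deposited table, which repeats the main values. Between 45 and 49 lay below NS (-) under the other corrections and without the HS (-) channel. Between 1 and 7 of the 50 were at least 2-fold lower, against 4 in the main values. No paired analysis was possible because each group had 1 pool. The detection limits in Cy3 were signals of 3.98 and 4.08, which bounds what weak spots can show.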

Other observations

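The arrays also carry 521 quality control spots, which entered the centering and no comparison above. Of these, 210 were measured in all 4 channels, with a median of 0.08 for log2 HS (ch+)/NS (-), and 4 were at least 2-fold higher and 5 at least 2-fold lower. Over the 48 printed blocks, the block median ranged from -0.09 to 0.06 on the log2 scale, which was small against the 2-fold limit.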
